A study of Mus musculus with 6 samples.

Results

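The platelet-derived growth factors (PDGF), the vascular endothelial growth factors (VEGF) and their receptor tyrosine kinases were examined in C2C12 cells. The cells were labelled wild-type (WT) or *MSTN*-knockout (MSTN-KO). The set was a list of 10 symbols: the ligands *Pdgfa*, *Pdgfb*, *Pdgfc*, *Vegfb*, *Vegfc* and *Vegfd*, and the receptors *Pdgfra*, *Pdgfrb*, *Flt1* and *Kdr*. All 10 were found among the 14548 genes of the expression files through the GENCODE M21 annotation of GRCm38, and 7 reached 1 FPKM in at least 1 library. FPKM counts fragments relative to gene length and library total, so levels of different genes can be ranked on it.

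C2C12 is a mouse line of myoblasts, the dividing precursors of muscle fibres. RNA was sequenced from 3 WT libraries and 3 MSTN-KO libraries. The MSTN-KO cells were 1 line, C11, made by electroporating a CRISPR/Cas9 plasmid against exon 3 of *MSTN*. The sources used here do not say whether C11 grew from a single cell. With 1 MSTN-KO line, the loss of *MSTN* and other differences between the lines cannot be told apart. All cells were described as myoblasts from skeletal muscle, and the culture medium contained fetal bovine serum. C11 also stands as the strain in the labels of the WT cells, and the groups were taken from the genotype and titles. *Mstn* RNA lay between 0 and 0.0586 FPKM in all 6 libraries, so it could not check the labels, and each direction given here rests on them. The study describes *FOS* as lower in MSTN-KO cells, by RNA-seq and by qRT-PCR. In the values used here, *Fos* was higher in the libraries labelled MSTN-KO. The study also reports more upregulated than downregulated genes in MSTN-KO cells. Here, at the same limits but with other software, 1.21% of all genes tested passed upwards and 2.3% downwards. Whether the labels of the groups were exchanged was not tested, and an exchange would turn every direction given here.

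PDGF ligands act as dimers. PDGF-A and PDGF-C activate the receptor encoded by *Pdgfra*, and PDGF-B activates that receptor and the one encoded by *Pdgfrb*. VEGF-B binds the receptor encoded by *Flt1*, which also binds VEGF-A and placental growth factor, while VEGF-C and VEGF-D are best known as ligands of the lymphatic receptor encoded by *Flt4*, and *Kdr* encodes the main signalling receptor for VEGF-A. In skeletal muscle, *Pdgfra* is a marker of fibro-adipogenic progenitors, *Pdgfrb* of pericytes and other stromal cells, and *Flt1* and *Kdr* of endothelial cells.

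The sequence upstream of *Flt1* and of *Vegfd* is shown because these genes had the largest ratios between group means among members above a handful of fragments, in opposite directions. The windows came from RefSeq (GRCm38.p6) and span 250 bases before to 50 bases after the transcript start. Windows were read for 8 of the 10 members, not for *Pdgfb* and *Pdgfrb*. Only the bases before the first annotated GENCODE exon are printed, 5′ to 3′. For *Flt1* these are the 250 bases at chr5:147726012-147726261 on the minus strand. In the *Flt1* stretch, capitals mark a cyclic AMP response element (TGACGTCA) and a TATA box (TATAAA). For *Vegfd* they are 106 bases at chrX:164373272-164373377 on the plus strand, where capitals mark an E-box (CANNTG).
Flt1 upstream: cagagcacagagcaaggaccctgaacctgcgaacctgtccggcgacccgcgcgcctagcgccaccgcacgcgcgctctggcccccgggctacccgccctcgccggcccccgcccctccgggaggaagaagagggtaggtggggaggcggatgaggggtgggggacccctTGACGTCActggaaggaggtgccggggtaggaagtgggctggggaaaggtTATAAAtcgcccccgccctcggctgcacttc
Vegfd upstream: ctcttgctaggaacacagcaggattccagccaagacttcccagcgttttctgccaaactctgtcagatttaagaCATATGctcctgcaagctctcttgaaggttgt

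The *Flt1* window had a GC content of 70.7% and 29 CpG dinucleotides, and its TATA box and cyclic AMP response element began 31 and 81 bases before the start. It also held 3 GC boxes (GGGCGG) and 1 EGR element (GCGGGGGCG), which overlaps the GC box nearest to the start. The *Vegfd* window was poorer in GC, at 42.0% with 2 CpG, against a median of 52.7% over all windows. It held 3 E-boxes and a TATA box 73 bases before the RefSeq start, inside the first GENCODE exon. Both strands were searched. Of 32851 windows, 13.6% held the TATA box, 1.79% the cyclic AMP response element, 35.7% the GC box, 2.91% the EGR element and 72.3% the E-box. Over the 10841 windows of genes that passed the expression filter, the shares were 6.84%, 3.16%, 64.4%, 5.65% and 62.5%. The AP-1 element (TGACTCA or TGAGTCA), in 5.2% of all windows and 3.6% of the windows of filtered genes, was in no window of the 8 members read. These are matches of letters only.

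The study paired its mRNA data with miRNAs, which act on mRNAs through bases 2 to 8, the seed. The mature sequences of 4 of the miRNAs it followed by qRT-PCR are given from RefSeq, with the seed in capitals, to show which members carry a complementary stretch. No seed is shared between them, and no miRNA counts were used here.
mmu-miR-130b-3p: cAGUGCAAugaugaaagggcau
mmu-miR-335-5p: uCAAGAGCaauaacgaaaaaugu
mmu-miR-335-3p: uUUUUCAUuauugcuccugacc
mmu-miR-206-3p: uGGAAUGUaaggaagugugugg

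In the 3′ UTR of the longest coding transcript, *Flt1* and *Pdgfrb* each held 2 matches to the miR-335-5p seed and *Pdgfra* held 1, beside 1 match to miR-130b-3p. The sites of *Flt1* and *Pdgfra* are shown as GRCm38 sequence with the seed match in capitals. Those of *Flt1* lie on the minus strand at chr5:147562586-147562607 (site 1) and chr5:147562471-147562492 (site 2). Those of *Pdgfra* lie on the plus strand at chr5:75196516-75196537 for miR-335-5p and chr5:75197969-75197990 for miR-130b-3p.
Flt1, miR-335-5p site 1: tgcagcccactgtgGCTCTTGg
Flt1, miR-335-5p site 2: gtccattcgcaaaaGCTCTTGt
Pdgfra, miR-335-5p: atgaactgcctggtGCTCTTGa
Pdgfra, miR-130b-3p: aggcacgttaactgTTGCACTt

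The 3′ UTRs of *Flt1*, *Pdgfrb* and *Pdgfra* are 2616, 1673 and 3101 bases long, all above the median of 1127 bases over the 10654 UTRs of filtered genes. Among those UTRs, 14.1% held the miR-335-5p match and 11.8% the miR-130b-3p match. The miR-335-3p match, present in 19.3%, occurred 2 times in *Vegfc* and 1 time in *Vegfb*, and the miR-206-3p match, present in 11.1%, occurred 1 time in *Pdgfa*. *Pdgfb*, *Pdgfc*, *Vegfd* and *Kdr* held none of the 4. *Pdgfrb* and *Flt1*, with 2 miR-335-5p matches each, differed between the groups in opposite directions, with *Flt1* below the expression filter. The part of miR-335-5p in these differences was not tested.

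The FPKM values of a library summed to between 723705 and 764524 in WT and between 856314 and 999579 in MSTN-KO. Depth was estimated from the FPKM that 1 fragment is worth in 69 to 116 low genes with a single transcript, and lay between 15300000 and 20800000 fragments per library. The numbers of fragments behind a value are therefore approximate, and they bound counting error only. Nothing states that the replicates were separate cultures, so a p-value measures the spread between these libraries, which may be technical. All of the 9 muscle differentiation markers analysed were lower in MSTN-KO, at adjusted p between 1.15e-06 and 0.00232, and their FPKM summed to 1002, 1002 and 307 in WT and to between 42.6 and 73.3 in MSTN-KO. WT replicate 3 thus stood apart from the other WT libraries, and the main results are also given without it.

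Of the 7 members tested, *Pdgfrb*, *Vegfd* and *Vegfb* rose in MSTN-KO cells and *Pdgfb* fell, at an adjusted p under 0.05 by limma over 10837 genes. By the same criterion, 8.78% of all genes tested were higher and 8.96% were lower. The study's criteria, an unadjusted p under 0.05 with a log2 fold change above 1 or below -1, were applied to the same fit. *Pdgfrb* and *Vegfd* were upregulated and no member was downregulated, where 1.21% and 2.3% of all genes passed. The study used other software and reports more upregulated than downregulated genes, so its calls and these are not alike. *Pdgfb* was at -0.94 on log2(FPKM + 1) and at -1.16 on log2(FPKM + 0.1), where it passed. All 3 MSTN-KO libraries lay above all 3 WT libraries for 4 of the tested members (*Pdgfrb*, *Vegfb*, *Vegfc* and *Vegfd*) and below them for *Pdgfb*. With each library scaled to the same sum, *Vegfb* and *Vegfc* overlapped between the groups and the others stayed apart. The scaling was planned, but reading overlap on it was added after the data were seen. Without that scaling, such separation was found for 19.3% of genes upwards and 18.1% downwards. The median log2 fold change was 0.42 over the 7 tested members and -0.00 over all genes tested. *Pdgfra*, *Flt1* and *Kdr* stayed under 1 FPKM in every library.

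**Figure D1:**
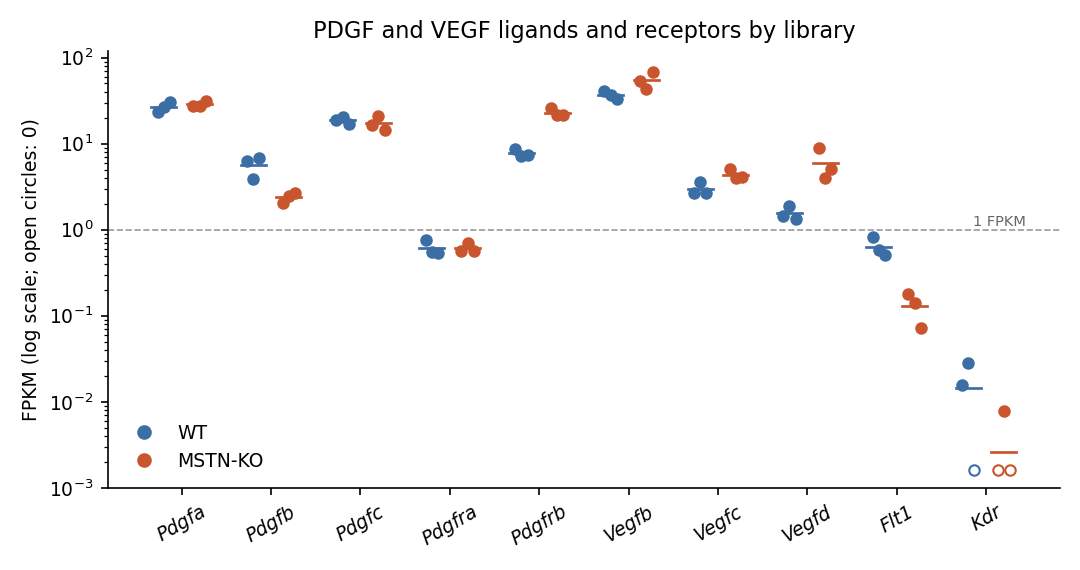
Level of each member in FPKM (log axis) in the 3 WT libraries (blue) and the 3 MSTN-KO libraries (orange), with a bar at each group mean, open circles for a value of 0 and a dashed line at 1 FPKM. *Pdgfrb* and *Vegfd* lie higher and *Pdgfb* and *Flt1* lower in every MSTN-KO library, while *Pdgfa*, *Pdgfc* and *Pdgfra* overlap and *Kdr* is near 0.

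In WT cells the order of the mean levels was *Vegfb*, *Pdgfa*, *Pdgfc*, *Pdgfrb*, *Pdgfb*, *Vegfc*, *Vegfd*, *Flt1*, *Pdgfra* and *Kdr*. Neighbours in this order did not overlap in their ranges, except *Flt1* and *Pdgfra*, at 0.635 and 0.617 FPKM. In MSTN-KO cells the order was *Vegfb*, *Pdgfa*, *Pdgfrb*, *Pdgfc*, *Vegfd*, *Vegfc*, *Pdgfb*, *Pdgfra*, *Flt1* and *Kdr*, and only *Vegfd* and *Vegfc* overlapped. *Pdgfrb* thus moved from below to above *Pdgfc*, and *Vegfd* from below to above *Pdgfb*. The lowest *Pdgfrb* value in MSTN-KO, 21.23 FPKM, was only just above the highest *Pdgfc* value there, 21.18 FPKM.

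*Pdgfa* (ENSMUSG00000025856, chromosome 5, 138976014 to 138997370, minus strand) encodes the PDGF-A chain and was the most expressed of the PDGF ligands. Its level was 23.3, 26.9 and 30.2 FPKM in WT replicates 1 to 3 and 27.0, 27.2 and 31.2 FPKM in MSTN-KO replicates 1 to 3. The groups overlapped, with means of 26.8 ± 3.46 and 28.5 ± 2.37 FPKM (SD, n = 3 each). The log2 fold change was 0.09 with a 95% interval from -0.21 to 0.38 (adjusted p = 0.689). Changes of either sign within that interval remained compatible with the values.

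*Pdgfc* (ENSMUSG00000028019, chromosome 3, 81036416 to 81214040, plus strand) encodes a ligand that is secreted in a latent form and released by proteolysis. It measured 18.6, 20.6 and 17.0 FPKM in WT and 16.6, 21.2 and 14.4 FPKM in MSTN-KO. Again the libraries of the groups were interleaved. The means were 18.7 ± 1.82 and 17.4 ± 3.45 FPKM, and the log2 fold change was -0.11 (95% interval -0.45 to 0.22, adjusted p = 0.651).

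*Pdgfb* (ENSMUSG00000000489, chromosome 15, 79995874 to 80014977, minus strand) encodes the PDGF-B chain, a ligand of both PDGF receptors. The WT libraries held 6.25, 3.91 and 6.75 FPKM, or about 332, 240 and 384 fragments. The MSTN-KO libraries held 2.06, 2.49 and 2.67 FPKM, or about 93, 135 and 145 fragments. Every MSTN-KO value was below every WT value, and WT replicate 2 was the lowest WT library. The mean was 2.34-fold higher in WT, at 5.64 ± 1.52 against 2.41 ± 0.314 FPKM. On the scale of log2(FPKM + 1) *Pdgfb* fell by 0.94 (SE 0.19, 95% interval -1.35 to -0.53, adjusted p = 0.00469). This change kept its direction and its call under all 17 alternative settings, with log2 fold changes between -1.20 and -0.81, and was -0.81 without WT replicate 3 (adjusted p = 0.0200).

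*Pdgfrb* (ENSMUSG00000024620, chromosome 18, 61045150 to 61085061, plus strand), a receptor for PDGF-B, had a fitted change close to that of *Vegfd*, and which of them was larger depended on the setting. It measured 8.55, 7.19 and 7.34 FPKM in WT and 26.0, 21.6 and 21.2 FPKM in MSTN-KO, on about 770 to 837 fragments per WT library and 2121 to 2160 per MSTN-KO library. The lowest MSTN-KO library was above the highest WT library, and the spread inside each group was small beside the gap. The mean was 2.98-fold higher in MSTN-KO, at 23.0 ± 2.65 against 7.69 ± 0.745 FPKM. Its log2 fold change was 1.46 (SE 0.14, 95% interval 1.15 to 1.76, adjusted p = 1.58e-05). Over the 17 alternatives it ranged from 1.21 to 1.56 and passed in each, and without WT replicate 3 it was 1.43.

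*Pdgfra* (ENSMUSG00000029231, chromosome 5, 75152292 to 75198215, plus strand), the other PDGF receptor, was present at a low level. It measured 0.755, 0.552 and 0.543 FPKM in WT and 0.558, 0.701 and 0.558 FPKM in MSTN-KO, on about 58 to 93 fragments per library. The groups overlapped, with means of 0.617 ± 0.12 and 0.606 ± 0.0824 FPKM. With no filter on low genes, its log2 fold change was -0.01 (SE 0.08, adjusted p = 0.959).

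Summed over both receptors, the level was 8.31 ± 0.864 FPKM in WT and 23.6 ± 2.62 FPKM in MSTN-KO. *Pdgfrb* made up 91.9% to 93.1% of that sum in WT and 96.9% to 97.9% in MSTN-KO. The sum of the 3 PDGF ligands was 51.2 ± 2.88 and 48.3 ± 2.58 FPKM, with ranges that overlapped, but with each library scaled to the same sum the groups did not overlap and MSTN-KO was the lower one. Within the unscaled sum, the share of *Pdgfb* was 13.0%, 7.60% and 12.5% in WT and 4.50%, 4.89% and 5.53% in MSTN-KO. *Pdgfrb* was thus higher and *Pdgfb* lower in the same libraries, while *Pdgfa* and *Pdgfc* did not pass the test and *Pdgfra* was below its filter. The ligand sum leaves out *Pdgfd*, a PDGF ligand that is not a member. It was at 2.77 ± 0.161 FPKM in WT and 3.10 ± 1.73 FPKM in MSTN-KO (log2 fold change 0.04, adjusted p = 0.917 by limma). The level of PDGF ligands as a whole is therefore not given by the members alone.

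**Figure D2:**
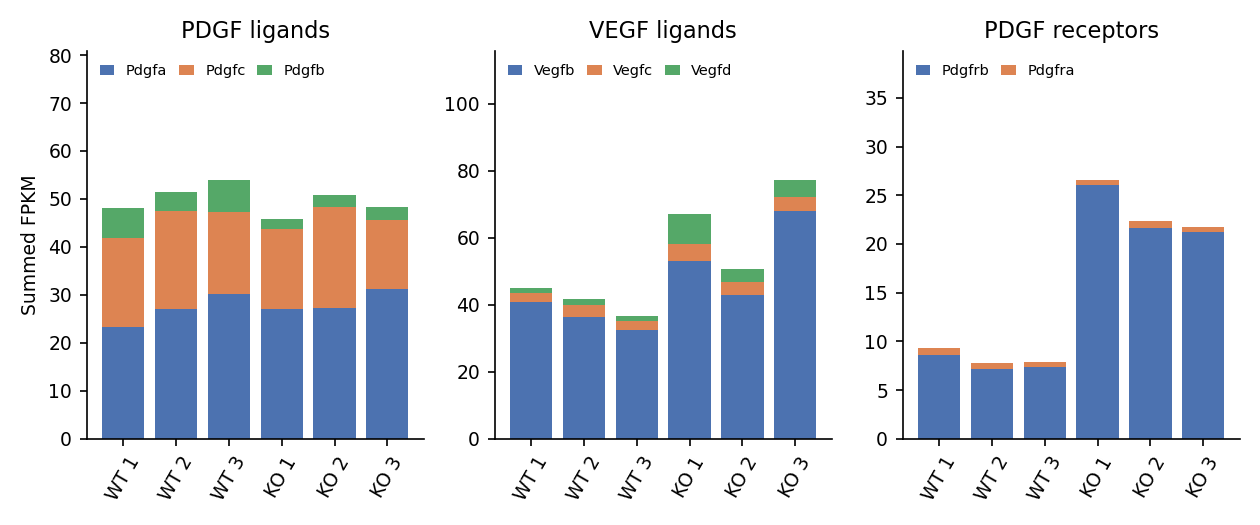
Summed FPKM of the member PDGF ligands, VEGF ligands and PDGF receptors in each of the 6 libraries (WT 1 to 3, MSTN-KO as KO 1 to 3). Each gene's part of a bar has its own colour, and the axis starts from 0 in each panel. The PDGF receptor bars are between 21.8 and 26.6 FPKM in MSTN-KO and between 7.74 and 9.31 FPKM in WT, nearly all of it *Pdgfrb*.

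*Vegfb* (ENSMUSG00000024962, chromosome 19, 6982473 to 6987651, minus strand), a ligand of Flt1 linked to fatty acid handling in muscle and heart, had the highest level of all members in both groups. WT libraries held 40.8, 36.3 and 32.6 FPKM and MSTN-KO libraries 53.1, 42.8 and 68.1 FPKM. The groups did not overlap, but MSTN-KO replicate 2 was only slightly above WT replicate 1. The mean was 1.49-fold higher in MSTN-KO, at 54.7 ± 12.7 against 36.6 ± 4.14 FPKM, and the log2 fold change was 0.55 (SE 0.16, 95% interval 0.19 to 0.90, adjusted p = 0.0355). This call was lost in 10 of the 17 alternatives, where all kept the direction. Leaving out any library other than MSTN-KO replicate 2 ended it, with adjusted p between 0.0517 and 0.132 (0.105 without WT replicate 3), and scaling each library to the same sum gave a log2 fold change of 0.27 (adjusted p = 0.170).

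*Vegfc* (ENSMUSG00000031520, chromosome 8, 54077606 to 54187096, plus strand), the main growth factor of lymphatic vessels, measured 2.67, 3.59 and 2.70 FPKM in WT and 5.03, 3.94 and 4.06 FPKM in MSTN-KO. All MSTN-KO libraries were above all WT libraries, with WT replicate 2 closest to them. The means were 2.99 ± 0.525 and 4.34 ± 0.596 FPKM, a ratio of 1.45. The log2 fold change of 0.42 (95% interval 0.07 to 0.78) did not pass over all genes (adjusted p = 0.0917), but passed with quantile normalization (0.55, adjusted p = 0.0405) and with a correction for gene length and GC content (0.47, adjusted p = 0.0422). It did not pass in the other 15 alternatives, where it was as low as 0.21 with scaling to the same sum (adjusted p = 0.410) and 0.33 without MSTN-KO replicate 1 (adjusted p = 0.290).

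*Vegfd* (ENSMUSG00000031380, X chromosome, 164373378 to 164402650, plus strand), a relative of *Vegfc*, was the least expressed VEGF ligand in WT. It measured 1.44, 1.89 and 1.33 FPKM in WT, on about 53 to 81 fragments, and 8.88, 3.96 and 5.06 FPKM in MSTN-KO, on about 149 to 278 fragments. The groups were well apart, and MSTN-KO replicate 1 was far above the other MSTN-KO libraries. The mean was 3.85-fold higher in MSTN-KO, at 5.97 ± 2.58 against 1.55 ± 0.298 FPKM. *Vegfd* rose by 1.39 on the log2 scale (SE 0.23, 95% interval 0.90 to 1.88, adjusted p = 0.00119). The value was 1.11 without MSTN-KO replicate 1 (adjusted p = 0.00156) and 1.33 without WT replicate 3 (adjusted p = 0.00394), and it passed in all 17 alternatives.

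*Vegfd* was first described as a growth factor induced by c-Fos, under the name *Figf*. *Fos*, chosen for this reason after its values had been seen, measured 2.31, 2.89 and 1.26 FPKM in WT and 19.3, 16.0 and 16.6 FPKM in MSTN-KO. Its log2 fold change was 2.57 (SE 0.19, adjusted p = 1.43e-06). The highest library for both genes was replicate 1 in MSTN-KO and replicate 2 in WT. The same held for *Vegfc*, *Vegfa* and *Pgf*, so that order was not particular to *Fos* and *Vegfd*. The direction of *Fos* goes against the study's description of *FOS*, so it bears on the group labels as well. The part of *Fos* in the *Vegfd* result was not tested.

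**Figure D3:**
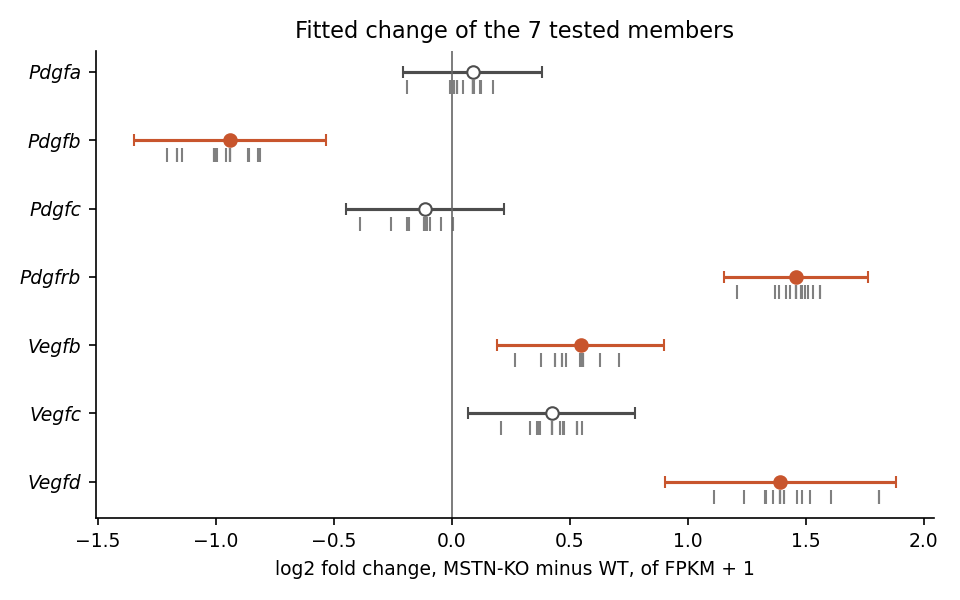
Fitted log2 fold change of FPKM + 1 for the 7 tested members, MSTN-KO minus WT, with 95% intervals from the limma fit and a tick under each for its value in every alternative setting. Filled points have an adjusted p under 0.05, and the intervals of *Pdgfrb* (1.15 to 1.76) and *Vegfd* (0.90 to 1.88) lie farthest above 0.

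*Flt1* (ENSMUSG00000029648, chromosome 5, 147561604 to 147726011, minus strand), the receptor of VEGF-B, was low in WT and lower in MSTN-KO. WT libraries held 0.817, 0.580 and 0.509 FPKM, or about 102, 83 and 68 fragments. MSTN-KO libraries held 0.181, 0.139 and 0.0728 FPKM, or about 19, 18 and 9 fragments. There was no overlap. The mean was 4.85-fold higher in WT, at 0.635 ± 0.162 against 0.131 ± 0.0545 FPKM. *Flt1* did not reach the filter of 1 FPKM in any library, so it was not part of the main test.

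Without the filter, over 14548 genes, *Flt1* had a difference of -0.53 on the scale of log2(FPKM + 1) (SE 0.08, adjusted p = 0.00856), where 6.23% of the genes were lower at that threshold. That scale compresses values under 1 FPKM. With a pseudocount of 0.1 and no filter, a setting chosen after the data were seen, the log2 fold change was -1.68 (SE 0.29, adjusted p = 0.00725). Leaving out single libraries without the filter, also added after the data were seen, gave -0.58 to -0.45. The call was lost without MSTN-KO replicate 1 (adjusted p = 0.0534) or MSTN-KO replicate 3 (adjusted p = 0.0520) and held without WT replicate 3 (adjusted p = 0.0182).

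*Kdr* (ENSMUSG00000062960, chromosome 5, 75932827 to 75978458, minus strand), the main VEGF-A receptor of endothelial cells, was at or near 0. It measured 0.0158, 0.0281 and 0 FPKM in WT and 0, 0.00773 and 0 FPKM in MSTN-KO, which is about 2, 3, 0, 0, 1 and 0 fragments. A count of 3 fragments, the limit that a count of 0 allows, corresponds to between 0.0243 and 0.0331 FPKM for this gene. No difference was detectable at this depth, and no fold is given. Of the receptors for the VEGF ligands, *Flt1* thus made up nearly all of the signal, and the sum of *Flt1* and *Kdr* was 0.650 ± 0.166 FPKM in WT and 0.133 ± 0.0552 FPKM in MSTN-KO. The sum of the 3 VEGF ligands was 41.1 ± 4.21 and 65.0 ± 13.4 FPKM in the same libraries. It did not overlap between the groups as deposited, but did with each library scaled to the same sum, where WT replicate 1 was above MSTN-KO replicate 2. In bulk RNA, fewer cells of a type and less RNA per cell cannot be told apart.

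Ratios of 2 members inside a library do not depend on how the libraries were scaled. Of 6 ratios listed, 4 had both genes at a mean of at least 1 FPKM in a group, and they were compared by two-sided exact permutation tests, where 3 libraries against 3 cannot give a p below 0.1. The log2 ratio of *Pdgfb* to *Pdgfa*, on FPKM + 0.1, was -1.88, -2.75 and -2.15 in WT and -3.65, -3.40 and -3.50 in MSTN-KO. The groups did not overlap, and the difference was -1.26 (exact p = 0.1, adjusted 0.2 over the 4 ratios). The log2 ratio of *Vegfd* to *Vegfc* was -0.85, -0.89 and -0.97 in WT and 0.81, 0.01 and 0.31 in MSTN-KO. *Vegfd* was therefore below *Vegfc* in every WT library. It was above *Vegfc* in MSTN-KO replicates 1 and 3 and level with it in MSTN-KO replicate 2, at 3.96 and 3.94 FPKM. The difference between the groups was 1.28 (exact p = 0.1, adjusted 0.2).

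The other ratios overlapped between the groups. The log2 ratio of *Pdgfc* to *Pdgfa* differed by -0.21 (exact p = 0.6, adjusted 0.8) and that of *Vegfc* to *Vegfb* by -0.03 (exact p = 0.9, adjusted 0.9). The share of *Vegfd* in the sum of the VEGF ligands was 3.20%, 4.52% and 3.62% in WT and 13.3%, 7.80% and 6.56% in MSTN-KO, so it was higher in each MSTN-KO library. *Vegfb* made up between 79.2% and 90.9% of that sum over the 6 libraries.

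**Figure D4:**
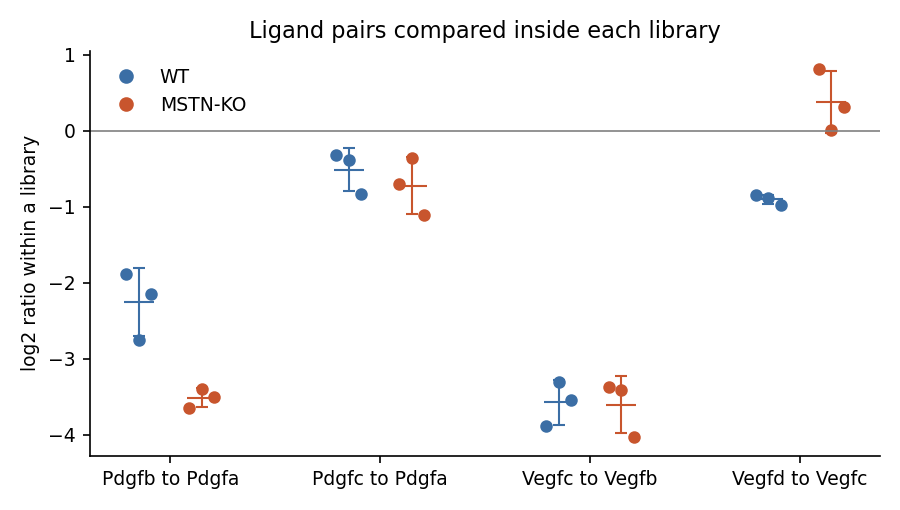
Log2 ratio of pairs of ligands inside each library, on FPKM + 0.1, for WT (blue) and MSTN-KO (orange), with the mean and SD of each group. *Pdgfb* relative to *Pdgfa* is between -3.65 and -3.40 in all MSTN-KO libraries and between -2.75 and -1.88 in WT. *Vegfd* relative to *Vegfc* is above 0 in MSTN-KO only, where replicate 2 is level at 0.01.

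Genes that act with the members were counted in 6 lists. These counts stand beside the shares over all genes tested, 8.78% higher and 8.96% lower at an adjusted p under 0.05 by limma. Of all genes tested, 49.9% had a log2 fold change above 0. The remaining ligands and receptors were *Vegfa*, *Pgf*, *Pdgfd*, *Pdgfrl* and *Flt4*, of which 4 were tested, 1 rose and none fell, with a median log2 fold change of 0.17. *Pgf*, encoding placental growth factor, another ligand of Flt1, measured 11.5, 12.1 and 10.8 FPKM in WT and 23.8, 16.9 and 21.7 FPKM in MSTN-KO. It rose by 0.80 (SE 0.15, adjusted p = 0.00305). *Vegfa*, the ligand of both *Flt1* and *Kdr* products, was at 36.4 ± 0.969 FPKM in WT and 45.3 ± 6.12 FPKM in MSTN-KO (log2 fold change 0.30, adjusted p = 0.125). *Flt4*, the receptor of VEGF-C and VEGF-D, was at 0 in 5 of the 6 libraries, so neither *Flt4* nor *Kdr* exceeded 0.0281 FPKM in any library.

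Among co-receptors and ligand-binding proteins, 11 of 12 listed genes were tested, 3 rose and 1 fell, with a median of 0.04. *Nrp2*, a co-receptor for VEGF-C and VEGF-D, measured 9.76, 7.47 and 7.04 FPKM in WT and 19.6, 13.2 and 13.1 FPKM in MSTN-KO (log2 fold change 0.83, adjusted p = 0.00680). *Lrp1*, an endocytic receptor that associates with PDGFRβ, was at 112 ± 4.49 and 191 ± 16.3 FPKM (0.76, adjusted p = 0.000972), and *Thbs1*, a matrix protein that counters VEGF signalling, at 128 ± 17.6 and 198 ± 30.4 FPKM (0.62, adjusted p = 0.0134). *Cd44*, a hyaluronan receptor, fell from 209.8 ± 32.3 to 111 ± 25.4 FPKM (-0.92, adjusted p = 0.00232). The *Nrp2* call was lost with scaling to the same sum (adjusted p = 0.0627), and the *Thbs1* call in 4 of 17 alternatives. *Thbs1* was 0.33 with scaling to the same sum (adjusted p = 0.149) and 0.48 with quantile normalization (adjusted p = 0.0647), and its call was also lost without WT replicate 2 (adjusted p = 0.0831) and without MSTN-KO replicate 1 (adjusted p = 0.0619).

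Of the 6 tested genes for ligand processing, none rose and 1 fell, with a median of -0.19 and all 6 values below 0. The one was *Plau*, urokinase, a protease that acts on latent PDGF-D, at 128, 131 and 121 FPKM in WT and 50.9, 53.4 and 51.6 FPKM in MSTN-KO. *Plau* fell by 1.27 on the log2 scale (SE 0.11, adjusted p = 7.67e-06). Receptor-proximal signalling had 29 tested genes, of which none rose and 5 fell, with a median of -0.17. The 3 largest falls at a pseudocount of 1 were in *Crkl*, an adaptor (-0.89, adjusted p = 0.00104), *Plcg2*, a phospholipase C (-0.86, adjusted p = 0.00315), and *Rasa1*, a RAS GTPase-activating protein that docks on PDGFRβ (-0.85, adjusted p = 0.0164). *Vav3* was close behind (-0.83, adjusted p = 0.00466), passed in all 17 alternatives and fell most with a pseudocount of 0.1 (-1.16, against -1.07 for *Plcg2*). It was named after its values had been seen. *Rasa1* was at 3.76, 7.45 and 3.45 FPKM in the MSTN-KO libraries and at 8.67 to 9.83 FPKM in WT, and its call was lost without the filter (adjusted p = 0.0722), without WT replicate 1 (adjusted p = 0.0582) and without MSTN-KO replicate 3 (adjusted p = 0.0792).

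Receptor turnover and phosphatases had 10 tested genes, of which 1 rose and none fell, with a median of 0.08. *Socs3*, an inhibitor of cytokine signalling, was at 12.5 ± 0.730 FPKM in WT and 20.3 ± 1.22 FPKM in MSTN-KO (0.66, adjusted p = 0.00419). In the list of endothelial growth and angiopoietin genes 3 were tested, 1 rose and none fell. That gene was *Apln*, the apelin ligand, at 2.51 ± 0.733 and 4.24 ± 0.772 FPKM (0.59, adjusted p = 0.0459), and its call was lost in 10 of 17 alternatives, including those without WT replicate 1, WT replicate 2, MSTN-KO replicate 1 or MSTN-KO replicate 3 (adjusted p between 0.115 and 0.204). No cause was tested for any of these lists.

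**Figure D5:**
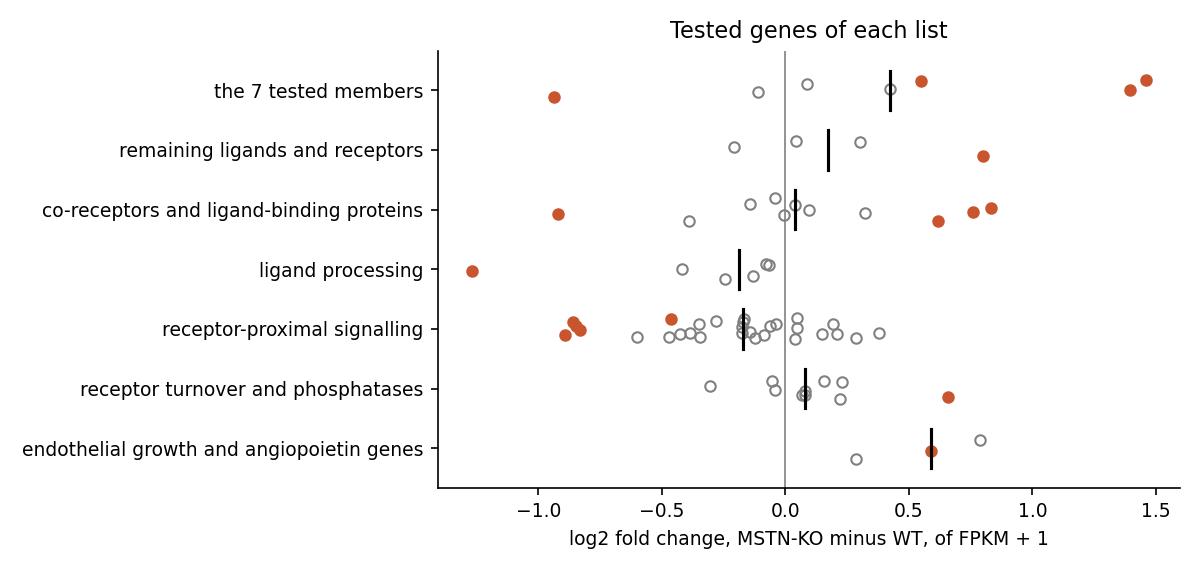
Log2 fold change of FPKM + 1, MSTN-KO minus WT, of each tested gene in the member set and in the 6 lists, with a black bar at each list's median. Filled points have an adjusted p under 0.05, and the 5 filled points among receptor-proximal signalling genes all lie below 0.

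The genes whose centred log2(FPKM + 1) values over the 6 libraries were closest to those of *Pdgfrb*, among 10327 genes with a mean of at least 1 FPKM, were *C1rl*, *Adamts1* and *Gas1*, at Euclidean distances of 0.256, 0.277 and 0.289. *Adamts1* encodes a secreted protease with anti-angiogenic activity, and *Gas1* a membrane protein tied to growth arrest. *Vegfd* was closest to *S100g*, *Adra1d* and *Aebp1*, at 0.345, 0.397 and 0.485. The nearest tested genes beside *Vegfd* on the X chromosome were *Pir*, 0.367 kb before it (log2 fold change 0.45, adjusted p = 0.0626), and *Piga*, 17.1 kb after it (-0.34, adjusted p = 0.256). Beside *Pdgfrb* they were *Tcof1*, 196 kb before it (0.40, adjusted p = 0.0581), and *Hmgxb3*, 46.2 kb after it (0.03, adjusted p = 0.911), so none of the 4 neighbours passed.

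Since the receptors mark other cell types in muscle tissue, the markers of those types were read in the same libraries. Of 11 endothelial markers 6 were analysed and 1 was tested, *Egfl7*, which did not pass. The sum was 1.71 to 4.28 FPKM in WT and 3.01 to 3.75 FPKM in MSTN-KO, most of it *Egfl7* in each library. *Pecam1*, *Cdh5* and *Tek* were at most 0.0581 FPKM, and *Esam* was at most 0.157 FPKM. *Vwf* was at 0 to 0.0158 FPKM in WT and higher in each MSTN-KO library, at 0.0347 to 0.0996 FPKM. All 7 pericyte and mural markers were analysed and none of the 4 tested passed, with sums of 35.2 to 58.5 and 44.6 to 51.3 FPKM. *Rgs5*, *Kcnj8* and *Abcc9* were at most 0.145 FPKM. The other 4 were expressed, *Notch3* at 19.0 to 36.1 FPKM, *Anpep* at 6.65 to 10.05 FPKM, *Mcam* at 3.45 to 6.82 FPKM and *Cspg4* at 3.35 to 5.77 FPKM. *Mcam* was lower in each MSTN-KO library than in any WT library (-0.46, adjusted p = 0.0690). The part of these cells in the *Pdgfrb* result was not tested.

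Of 12 fibroblast and fibro-adipogenic markers, 8 were analysed and 6 tested. *Col3a1* rose (0.68, adjusted p = 0.00765) and *Dcn* fell (-0.73, adjusted p = 0.0454), and the sum was 796 to 1104 FPKM in WT and 1077 to 1234 FPKM in MSTN-KO. Of 6 macrophage markers, 3 were analysed and neither of the 2 tested passed. Of 6 myoblast markers, 5 were analysed and tested. *Pax7* rose and *Myod1*, *Des* and *Chrna1* fell, with sums of 1025 to 1362 FPKM in WT and 567 to 693 FPKM in MSTN-KO. The part of the lower myoblast and muscle differentiation markers in the changes of *Pdgfrb*, *Pdgfb*, *Vegfb*, *Vegfd* and *Flt1* was not tested.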

How the data were processed

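RNA of 3 WT and 3 MSTN-KO C2C12 libraries was sequenced on an Illumina HiSeq system, and the authors deposited FPKM values for 14548 genes, one library per file. The submitters' processing notes name Bowtie 0.12.2 and the build mm8 without a role; the annotation, the counting program and any gene filter are not given in the sources used here. FPKM divides by gene length and library total, so a few abundant genes lower all other values of a library.

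The members and all lists were chosen with earlier results of these data known. Symbols, positions, lengths and 3′ UTRs came from GENCODE M21 (GRCm38), with a symbol, length and GC content for 14445 identifiers (99.3%). Promoters and miRNAs came from RefSeq tables. Of the miRNAs followed, mmu-miR-301b-3p was not matched, as its mature sequence was not found there. Its primer in the study contains AGTGCAA, the DNA letters of the miR-130b-3p seed.

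The log2(FPKM + 1) values of the 10837 genes that reached 1 FPKM in any library were compared in limma 3.58.1 (R 4.3.3, eBayes with trend, two-sided), with Benjamini-Hochberg adjustment over all genes tested. Fold changes on this scale understate those of low genes. Named were all members, at most the 3 largest rises and 3 largest falls with an adjusted p under 0.05 in each list, and, for members past the study's criteria, the 3 most alike genes and nearest tested neighbours. The script was tested on simulated data. Depth was estimated at 15300000 to 20800000 fragments per library, so values that rest on few fragments are imprecise. Alternatives were another pseudocount (0.1), filtering on the mean or not at all, no trend, scaling by quantiles, percentile 75 or an equal sum, a correction for length and GC content (mgcv 1.9.3), a block for the replicate number alone or with that correction, and leaving out each library. Other steps used Python 3.11.15, pandas 2.3.3, numpy 2.4.6, scipy 1.17.1 and, for plots, matplotlib 3.10.9.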

Additional observations from a re-analysis of the deposited data

How the results depend on the processing

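Over 17 alternatives, the calls of *Pdgfrb*, *Pdgfb* and *Vegfd* kept their side and direction, and *Vegfb* kept its call in 7. With no filter, 2 members were lower at the adjusted p, and 2 with a pseudocount of 0.1 and no filter, where *Flt1* adds to *Pdgfb*. At the study's criteria no member was lower, against 1 with a pseudocount of 0.1, percentile 75 scaling, scaling to a sum of 1000000, the length and GC correction, or that correction with the replicate block, 2 with a pseudocount of 0.1 and no filter, and 0 to 1 when single libraries were left out (1 without WT replicate 2). Scaling to a sum of 1000000 shifted the median change of all genes tested to -0.26 (log2) and the calls to 350 higher and 2367 lower, against 952 and 971. It gave 3 higher and 17 lower genes in the pathway lists, against 6 and 7, and moved *Pdgfa* to -0.19, which is above that median. Percentile 75 scaling gave 757 higher and 1192 lower genes. Leaving out single libraries gave 423 to 1184 higher and 606 to 1251 lower genes, log2 fold changes of -0.0050 to 0.18 for *Pdgfa* and -0.26 to 0.0076 for *Pdgfc*, and a difference of -0.18 to 0.19 in the log2 ratio of *Vegfc* to *Vegfb*. The cause was not tested. Deviations of same-numbered libraries correlated at -0.0153, -0.128 and -0.142, so the numbers gave no sign of pairing. With the replicate block 3 members were higher and 1 lower, as without it, among 939 higher and 1001 lower genes. Depth limits *Flt1* and *Kdr*, with about 9 to 19 and 0 to 1 fragments in the MSTN-KO libraries.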
